A study of Mus musculus with 4 samples.

Results

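The natriuretic peptide system was examined on all arrays of the series through 8 genes: the peptide genes Nppa, Nppb and Nppc, the receptor genes Npr1, Npr2 and Npr3, and the protease genes Corin and Furin. Every probe set assigned to one of these symbols alone was taken, which gave 10 of the 45037 probe sets analysed. Npr3 had 3 probe sets and each of the other genes had 1. By their labels and the study's methods, 2 arrays came from hearts of adult C57BL/6J mice of genotype CAAG-ERT2-Cre;Rhau F/F (labelled Rhau KO). The other 2 came from hearts of Rhau F/F mice of that strain (labelled Control). All mice carried floxed Rhau alleles and received 5 doses of tamoxifen at 2 months of age, and hearts were taken 2 months after the treatment. The CAAG promoter drives the inducible Cre broadly, so recombination is not limited to cardiomyocytes, and no array came from mice with Cre but without floxed alleles. Nothing in the labels states that the replicates were different animals, and p-values therefore reflect only how far these arrays spread. The arrays are called KO-labelled and Control-labelled below.

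Natriuretic peptides are hormones that the heart releases when its walls are stretched. Atrial natriuretic peptide (ANP, from Nppa) and brain natriuretic peptide (BNP, from Nppb) are made by cardiomyocytes as precursors, and C-type natriuretic peptide (CNP, from Nppc) is made chiefly by endothelial cells. The receptors NPR1 and NPR2 are guanylyl cyclases that raise cGMP when a peptide binds, while NPR3 takes up peptides and clears them. Nppa and Nppb transcripts are widely used as markers of a stressed or failing ventricle.

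The label of Control replicate 1 was not borne out by heart markers, and the targeted gene ran against the labels, so all values are given by array label. Dhx36, which encodes RHAU, read higher in both KO-labelled arrays than in both Control-labelled ones on each of its 3 probe sets. Of all probe sets, 21.4% did so. The Dhx36 values were 627 and 537 against 156 and 172, 568 and 537 against 327 and 194, and 327 and 276 against 253 and 149. Of 10 ventricular cardiomyocyte markers, 8 read at least 2-fold lower in Control replicate 1 than in any other array (11.3% of all genes did), and 9 of 10 skeletal muscle markers read at least 2-fold higher (1101 of 18193 genes did). The summed intensity of the ventricular markers was 388568 and 383735 on the KO-labelled arrays, 87524 on Control replicate 1 and 385913 on Control replicate 2. On Control replicate 1 most of that sum came from Myl2 (37359), Myl3 (37087) and Actc1 (12364), while Tnni3 read 10.3 and Myh6 171. The summed intensity of the skeletal markers was 31072 and 31623, against 433980 on Control replicate 1 and 30280 on Control replicate 2. Outside Control replicate 1 most of it came from Ckm, at 30491 and 31305 on the KO-labelled arrays and 29873 on Control replicate 2. Intensities are MAS5 values in arbitrary units, and the median probe set of an array read 80.5 to 91.7. A probe set under that median is called dim below.

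Nppa and Nppb were among the bright transcripts of 3 arrays and were dim in Control replicate 1. Nppa read 12549.5 and 30369 on the KO-labelled arrays, 24.8 on Control replicate 1 and 33614 on Control replicate 2. Control replicate 2 was thus the highest array and Rhau KO replicate 1 the lowest of the 3 bright ones, and the 2 groups overlapped. Nppb read 18459 and 23965 on the KO-labelled arrays, 10.1 on Control replicate 1 and 27708 on Control replicate 2. The order of the 4 arrays was the same as for Nppa. The lowest of the other 3 arrays exceeded Control replicate 1 by 506-fold for Nppa and 1836-fold for Nppb, and by 156-fold and 229-fold when the median of Control replicate 1 is taken as a floor for its dim values. In a bulk sample, fewer cells of a type and less RNA per cell cannot be told apart.

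**Figure D1:**
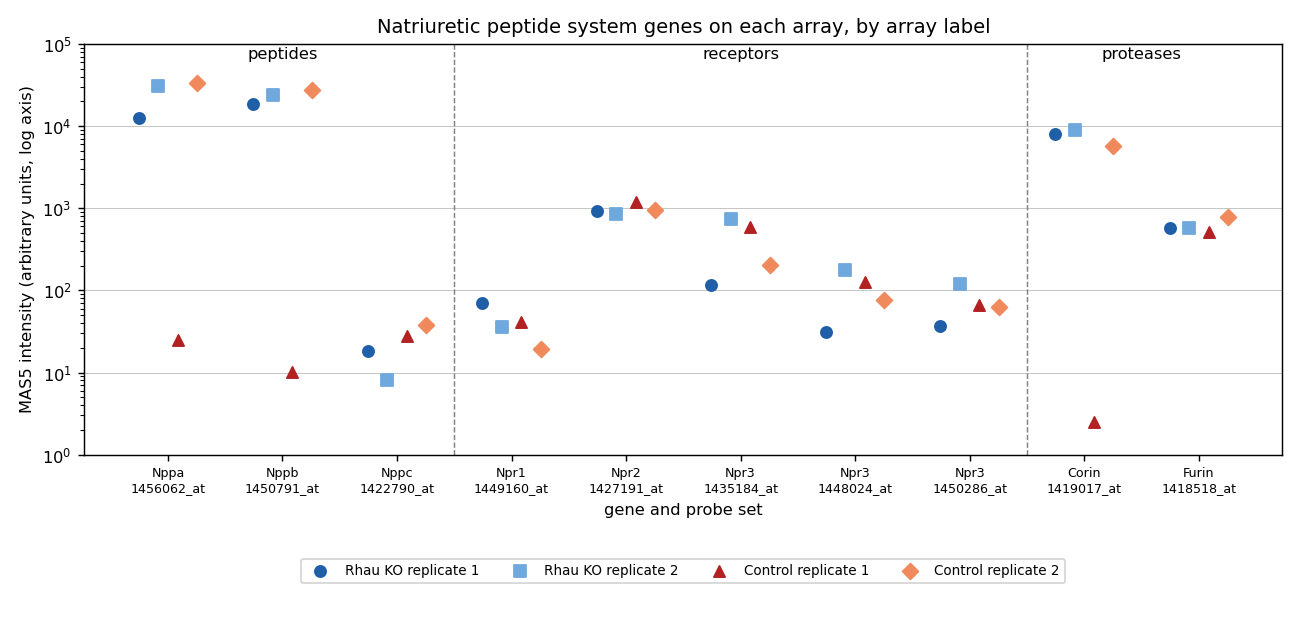
MAS5 intensity (log axis, arbitrary units) of the 10 probe sets, one symbol per array, with blue symbols for KO-labelled and red or orange ones for Control-labelled arrays. Nppa, Nppb and Corin sit at 24.8, 10.1 and 2.5 in Control replicate 1 and between 5661.5 and 33614 in the other 3 arrays, while Npr2 and Furin stay within 514 to 1200.2 on all 4.

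Over all 4 arrays, the 95% confidence intervals of Nppa and Nppb ran from negative to positive values, so neither direction was resolved. The log2 difference of Nppa, Rhau KO minus Control, was 4.42 (standard error 3.37, 95% confidence interval -4.33 to 13.17, adjusted p = 0.892 from limma). That of Nppb was 5.32 (standard error 3.68, interval -4.23 to 14.86, adjusted p = 0.892 from limma). Both positive signs depended on Control replicate 1. Without it, the KO-labelled arrays read lower than the remaining Control array, by a log2 difference of -0.78 (standard error 0.48) for Nppa and -0.40 (standard error 0.16) for Nppb, with adjusted p = 0.642 and 0.469 from limma. Without Control replicate 2, the differences were 9.62 and 11.03, in a comparison whose lone Control array is the one with skeletal muscle transcripts.

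Within the pair labelled Rhau KO, Nppa varied more than Nppb. Rhau KO replicate 2 exceeded Rhau KO replicate 1 by 2.42-fold for Nppa and by 1.30-fold for Nppb. Control replicate 2 exceeded Rhau KO replicate 2 by 1.11-fold for Nppa and 1.16-fold for Nppb, and Rhau KO replicate 1 by 2.68-fold and 1.5-fold.

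Atrial markers were mixed on the arrays where Nppa was bright. In adult mice Nppa is made mainly in the atria. Of 8 measured atrial markers, 4 (Myl7, Gja5, Sln and Bmp10) lay under the array median on each of those 3 arrays. On each array taken singly, 7081 to 7100 of 18193 genes did, and genes under it on all 3 were not counted. The other 4 markers (Myl4, Nr2f1, Nr2f2 and Pam) lay above the array median. Myl7, the atrial regulatory myosin light chain, was dim on every array, with a highest value of 35.2 and a lowest of 5.35. Gja5, which encodes the atrial and conduction connexin 40, read 2.78 and 4.87 against 1.74 and 2.69. Sln, the sarcolipin gene of atria and skeletal muscle, read 8.85 and 40.9 on the KO-labelled arrays, 2656 on Control replicate 1 and 6.85 on Control replicate 2. Myl4, the atrial essential myosin light chain gene, was above the median throughout, at 474 and 333 on the KO-labelled arrays against 701 and 190 on the Control-labelled ones. Bmp10, an atrial growth factor gene, read 17.0 and 27.9 against 85.4 and 61.6, and was the 1 of 8 that passed a fold of 2 with an unadjusted p under 0.05, in the lower direction (1.65% of all genes did). Summed over the 8 markers the intensity was 9258 and 13887 on the KO-labelled arrays and 5712 and 9919 on the Control-labelled ones, of which Pam, a peptide-amidating enzyme also found in ANP granules, made up the larger share on 3 arrays and not on Control replicate 1.

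Nppa and Nppb are neighbours on mouse chromosome 4 in the same orientation, Nppb at chr4:147985786-147987205 and Nppa at chr4:148000722-148002074 (GRCm38.p6), with 13516 bases between them. Their promoters are shown because both genes were dim in Control replicate 1, together with several cardiac transcription factors. Most ventricular markers were also low in that array, and the part of promoter sequence in these values was not tested. Promoter sequences were taken from RefSeq for all 8 genes, as 250 bases before and 50 after each start site. Searched on both strands, the GATA factor motif TGATAA was found in the promoters of 2 of the 8 genes, Nppa and Nppb, and in 9.05% of 32851 mouse promoters of that length. The T-box motif GGTGTGA was found in that of Nppa alone among the 8 genes and in 3.98% of all promoters. The following 30-base windows carry these matches in capitals, on the strand of the gene, and the T-box match lies on the opposite strand and so reads TCACACC. The matches begin 122 (Nppa, GATA), 95 (Nppb, GATA) and 250 (Nppa, T-box) bases before the start site of the promoter table, 148000722 for Nppa and 147985900 for Nppb. The site for Nppb lies inside the annotated gene interval, so its GATA window does too. The windows are chr4:148000588-148000617, chr4:147985793-147985822 and chr4:148000472-148000501 on the plus strand.
Nppa GATA window: gctttgccgaacTGATAActttaaaagggc
Nppb GATA window: caggaatgcagcTGATAAatcagagataac
Nppa T-box window: TCACACCtttgaagtgggggcctcttgagg
A match is a description of these letters, and binding was not measured. The TATA box letters TATAAA were present in the promoters of 4 of the 8 genes, Nppa, Nppb, Nppc and Furin, and in 13.6% of all promoters.

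Of 13 transcription factors that act on the Nppa and Nppb promoters, 0 passed a fold of 2 with an unadjusted p under 0.05 over all 4 arrays. Among the brightest probe sets of all 18193 genes, 1.74% passed higher and 1.65% lower. In Control replicate 1, 7 of the 13 read at least 2-fold below every other array, against 11.3% of all genes. The T-box factor Tbx20 read 4765 and 4354 on the KO-labelled arrays, 1.90 on Control replicate 1 and 4316 on Control replicate 2. Tbx5, another T-box factor of the heart, read 279 and 247, against 9.61 and 258. Gata6, a GATA factor of cardiomyocytes named after its values were seen, read 3827 and 3046, against 27.2 and 4933. These factors were dim in the array in which Nppa and Nppb were dim, and each was bright in the other 3. Most ventricular markers were low in that array too, and a regulatory link was not tested. Mef2c, a muscle transcription factor, ran the other way at 1527 and 1145 on the KO-labelled arrays, 13581 on Control replicate 1 and 1559 on Control replicate 2. The 13 factors had a median log2 difference of 0.58 with all arrays and -0.14 when Control replicate 1 was set aside, beside 0.09 and 0.03 over all genes. Nkx2-5, a homeobox factor of cardiomyocytes named after its values were seen, read 1233 and 1358 on the KO-labelled arrays. It read 64.8 on Control replicate 1 and 6343 on Control replicate 2. Its log2 difference was -2.29 without Control replicate 1, a fit with 1 Control array left, and 1.01 with all arrays.

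Among genes with a mean intensity of at least 1000, those nearest in pattern to Nppa over the 4 arrays were Dsp (desmoplakin of the desmosome), Mybpc3 (cardiac myosin-binding protein C) and Kcnk3 (a potassium channel). The distance was Euclidean over log2 deviations from each gene's own mean, and was 1.01, 1.30 and 1.47 among 4298 genes. For Nppb the nearest were Tbx20 (0.53), Tnni3, the cardiac troponin I gene (0.76), and Dsp (1.01). Dsp read 28460 and 30968 on the KO-labelled arrays, against 28.4 and 31209 on the Control-labelled ones. With 4 points, 1 of them far from the rest, likeness is set mostly by Control replicate 1.

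Nppc was dim on all 4 arrays. It read 18.2 and 8.16 on the KO-labelled arrays against 28.0 and 37.7 on the Control-labelled ones. Both KO-labelled arrays were below both Control-labelled ones, as were 14% of all probe sets, and every value lay under the median of its array. The log2 difference was -1.42 (standard error 0.77, interval -3.42 to 0.58, adjusted p = 0.892 from limma), so a difference was not resolved at this brightness.

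Among the receptors, Npr1, the guanylyl cyclase that responds to ANP and BNP, was likewise dim. It read 70.7 and 36.0 on the KO-labelled arrays against 41.8 and 19.1 on the Control-labelled ones, and the groups overlapped. Its log2 difference was 0.84 (standard error 0.72, interval -1.04 to 2.71, adjusted p = 0.892 from limma). Npr2, the guanylyl cyclase that responds to CNP, was the steadiest receptor gene. It read 919 and 849 on the KO-labelled arrays against 1200.2 and 947 on the Control-labelled ones, so the groups did not overlap, as for 35.4% of all probe sets in either direction. The log2 difference was small at -0.27 (standard error 0.24, interval -0.89 to 0.35, adjusted p = 0.892 from limma). Leaving out Control replicate 1, the highest of the 4, made it -0.10. Npr2 was above the array median in Control replicate 1 as in the others, unlike Nppa and Nppb.

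Npr3, the clearance receptor, differed more within each label than between labels. On its brightest probe set, 1435184_at, it read 117 and 741 on the KO-labelled arrays against 596 and 205 on the Control-labelled ones. On 1448024_at it read 31.0 and 178 against 127 and 76.5, and on 1450286_at 36.6 and 118 against 66.0 and 62.3. The order of the arrays was the same on all 3 probe sets, with Rhau KO replicate 2 highest, then Control replicate 1, Control replicate 2 and Rhau KO replicate 1. Rhau KO replicate 2 exceeded Rhau KO replicate 1 by 6.32-fold, 5.75-fold and 3.21-fold. Steps of at least 2-fold in that direction were seen for 4 of the 10 probe sets of the system (Nppa and the 3 of Npr3), against 11.2% of all, and in either direction for 5 of 10 (Nppc too), against 22.2%. Probe sets of 1 gene share their target and the same 4 RNA samples, so they are no replicates of a heart.

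**Figure D2:**
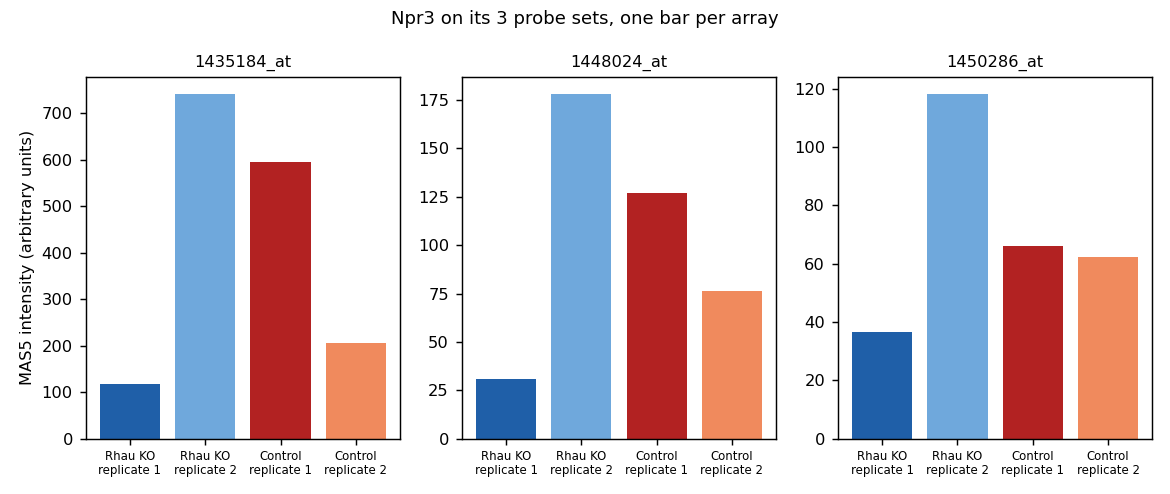
MAS5 intensity (linear axis from 0, arbitrary units) of Npr3 on 3 probe sets, one bar per array, with KO-labelled arrays on the left of each panel. On each probe set Rhau KO replicate 2 is highest (741, 178 and 118) and Rhau KO replicate 1 lowest (117, 31.0 and 36.6), with both Control arrays between them.

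Between labels, the log2 difference of Npr3 was -0.25 (standard error 1.02) on 1435184_at, -0.41 (standard error 0.93) on 1448024_at and 0.03 (standard error 0.70) on 1450286_at, with adjusted p = 0.973, 0.946 and 0.995 from limma. On 1450286_at the sign turned to -0.07 with quantile normalization and -0.09 with median centring. Without Control replicate 1 the sign on 1435184_at turned to 0.52, and without Control replicate 2 that on 1450286_at turned to -0.01. Without Rhau KO replicate 1 the 3 differences were 1.08, 0.85 and 0.87, and without Rhau KO replicate 2 they were -1.58, -1.67 and -0.81. Each KO-labelled array therefore set the direction when it stood alone. Npr3 is abundant in adipose tissue, and 3 of 4 adipocyte markers were measured. Adipoq, the adiponectin gene, read 3.93 and 164 on the KO-labelled arrays against 911 and 97.5 on the Control-labelled ones, lowest in Rhau KO replicate 1 as was Npr3. Adipoq was highest in Control replicate 1, and none of the 3 markers had the array order of Npr3. Cidec, a lipid droplet protein gene, read 63.2 and 65.2 against 108 and 53.8, lowest in Control replicate 2, and Fabp4, a fatty acid binding protein gene, was lowest in Control replicate 1. The sum of the 3 markers was 31143 and 33589, against 20605 and 31892. Most of it came from Fabp4, so the sum was lowest in Control replicate 1, where Adipoq was highest. The part of adipose tissue in the Npr3 values was not tested.

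Of the proteases, Corin followed the peptides. Corin is a membrane serine protease of cardiomyocytes that cuts pro-ANP to ANP. It read 7966 and 8865 on the KO-labelled arrays, 2.5 on Control replicate 1 and 5661.5 on Control replicate 2. Both KO-labelled arrays were above both Control-labelled ones, as were 21.4% of all probe sets. The lowest of the other 3 arrays exceeded Control replicate 1 by 2265-fold, or by 70.3-fold with the median of that array as a floor. Nppa, Nppb and Corin were 3 of 40 probe sets (0.0888% of all) at least 100-fold lower in Control replicate 1 than in every other array when values are taken as measured. With that floor for all probe sets, a step added after seeing the data, 2 of 10 (Nppa and Nppb) and 16 of all (0.0355%) were. They were also the 3 of 10 that were at least 2-fold lower there, against 10.7% of all probe sets, and 0 of 10 were at least 2-fold higher there than elsewhere, against 6.02%. Among the other 3 arrays, 4 of 10 (Nppb, Npr2, Corin and Furin) stayed within a 2-fold range, against 62.9% of all.

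The log2 difference of Corin was 6.14 (standard error 3.59, interval -3.16 to 15.45, adjusted p = 0.892 from limma). Without Control replicate 1 it was 0.57 (standard error 0.11, interval 0.30 to 0.84), a 1.48-fold higher intensity on the KO-labelled arrays. The unadjusted p was under 0.05, but the adjusted p = 0.177 from limma did not pass the threshold. Without Control replicate 2 it was 11.72, with Control replicate 1 as the lone Control array. Corin and the peptide genes it serves thus had opposite signs once Control replicate 1 was set aside, with Nppa at -0.78 and Nppb at -0.40, and that contrast was not tested.

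Furin, a proprotein convertase of the secretory pathway that cuts pro-BNP and pro-CNP, was above the array median on all arrays. It read 571 and 574 on the KO-labelled arrays against 514 and 789 on the Control-labelled ones. The Control arrays lay on either side of the pair labelled Rhau KO. The log2 difference was -0.15 (standard error 0.30, interval -0.93 to 0.62, adjusted p = 0.936 from limma). Without Control replicate 1 it was -0.46 (standard error 0.16, adjusted p = 0.389 from limma), and without Control replicate 2 it turned to 0.15.

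Over the 10 probe sets, 0 passed an adjusted p under 0.05 and 0 an unadjusted p under 0.05 by limma with all arrays, and the methods' t-test also called 0 at either threshold. Over all 45037 probe sets, 0% passed the adjusted threshold and 4.2% the unadjusted one. At a fold of 2 with an unadjusted p under 0.05, 0 of 10 passed against 3.36% of all, which were 847 higher (1.88%) and 667 lower (1.48%) (664 higher and 865 lower with median centring). The groups did not overlap for 3 of 10 probe sets (Nppc, Npr2 and Corin), a share below the 35.4% of all probe sets. Without Control replicate 1, 2 of 10 (Corin and Furin) had an unadjusted p under 0.05, against 10.9% of all probe sets, 0 an adjusted p under 0.05, against 0.293%, and 0 a fold of 2 with an unadjusted p under 0.05, against 4.64%. With 2 arrays on each side, the smallest two-sided p that exact permutation allows is 0.333. The median log2 difference of all probe sets was 0.093, and -0.031 after median centring.

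**Figure D3:**
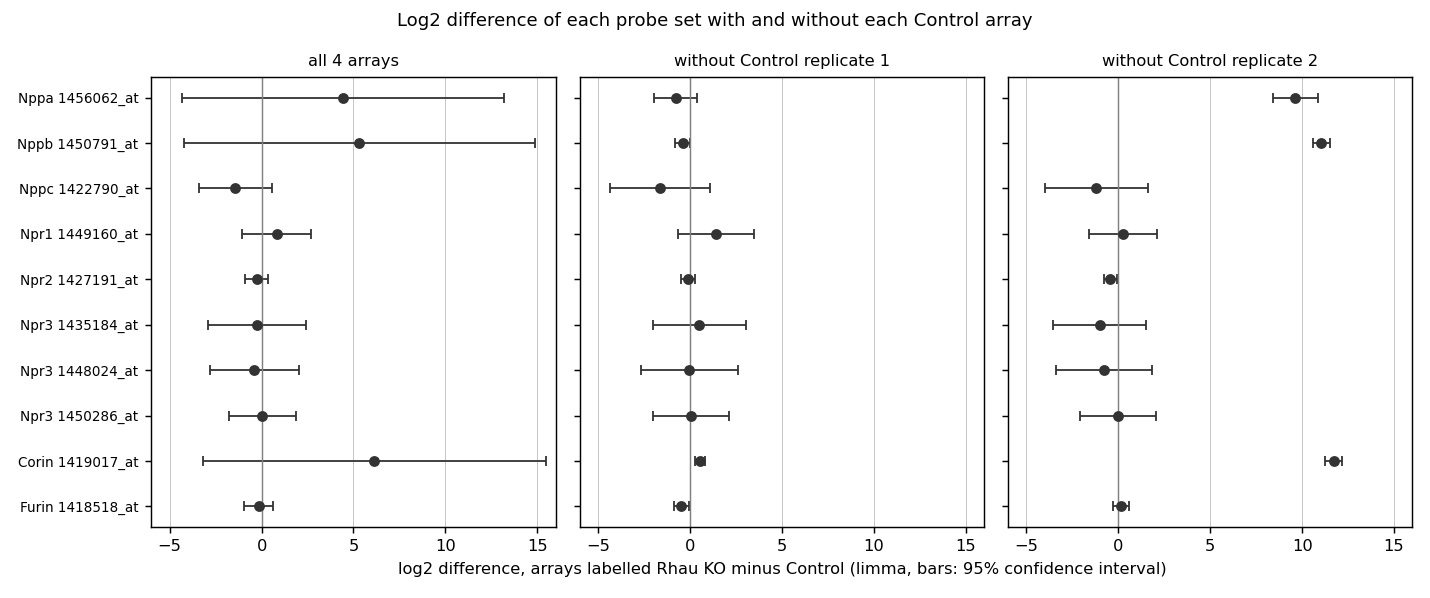
Log2 difference (KO-labelled minus Control-labelled arrays, limma) of the 10 probe sets, with bars for the 95% confidence interval, over all 4 arrays and without each Control array. Nppa, Nppb and Corin move from 4.42, 5.32 and 6.14 with wide intervals to -0.78, -0.40 and 0.57 without Control replicate 1 and to 9.62, 11.03 and 11.72 without Control replicate 2.

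Of 6 measured genes that further process, clear or bind natriuretic peptides, 0 passed a fold of 2 with an unadjusted p under 0.05 (1.74% of all genes passed higher and 1.65% lower). Pcsk5, a proprotein convertase, read 171 and 124 on the KO-labelled arrays against 255 and 228 on the Control-labelled ones, which is -0.72 on the log2 scale (standard error 0.34). Pcsk6, the convertase that activates corin, read 565 and 916 against 243 on Control replicate 1 and 865 on Control replicate 2. Pam read 7864 and 12571 against 1262 and 8983. Both Pcsk6 and Pam were therefore lowest in Control replicate 1, by 2.33-fold and 6.23-fold, against 70.3-fold for Corin with the floor.

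Downstream, cGMP is also made by soluble guanylyl cyclase, acts through the kinase PRKG1 and is broken down by phosphodiesterases. Of 17 measured genes of this pathway, 1 passed a fold of 2 with an unadjusted p under 0.05, higher on the KO-labelled arrays, and 0 passed lower (1.74% and 1.65% of all genes). The gene was Rgs2, a regulator of G protein signaling that PRKG1 phosphorylates, at 2780 and 2646 on the KO-labelled arrays against 458 and 917 on the Control-labelled ones. Its log2 difference was 2.07 (standard error 0.38, adjusted p = 0.892 from limma), and 1.56 without Control replicate 1, which leaves 1 Control array. Gucy1a1, the soluble cyclase alpha subunit, read 760 and 551 against 174 and 428, which is 1.24 on the log2 scale (standard error 0.50). Pde1a, a calcium-activated phosphodiesterase, read 280 and 216 against 85.6 and 164. For these 3 genes, taken for their small p, both KO-labelled arrays were above both Control-labelled ones, as for 21.4% of all probe sets.

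Some other genes of the pathway were set apart in Control replicate 1. Pde3a, a cardiac phosphodiesterase named after its values were seen, read 171 and 112 on the KO-labelled arrays against 1.82 on Control replicate 1 and 124 on Control replicate 2. Of the 17 genes, 5 read at least 2-fold lower there than in any other array, against 11.3% of all genes. The median log2 difference of the 17 genes was 0.40, and -0.08 without Control replicate 1, when 7 were higher and 10 lower. Over all genes those medians were 0.09 and 0.03.

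**Figure D4:**
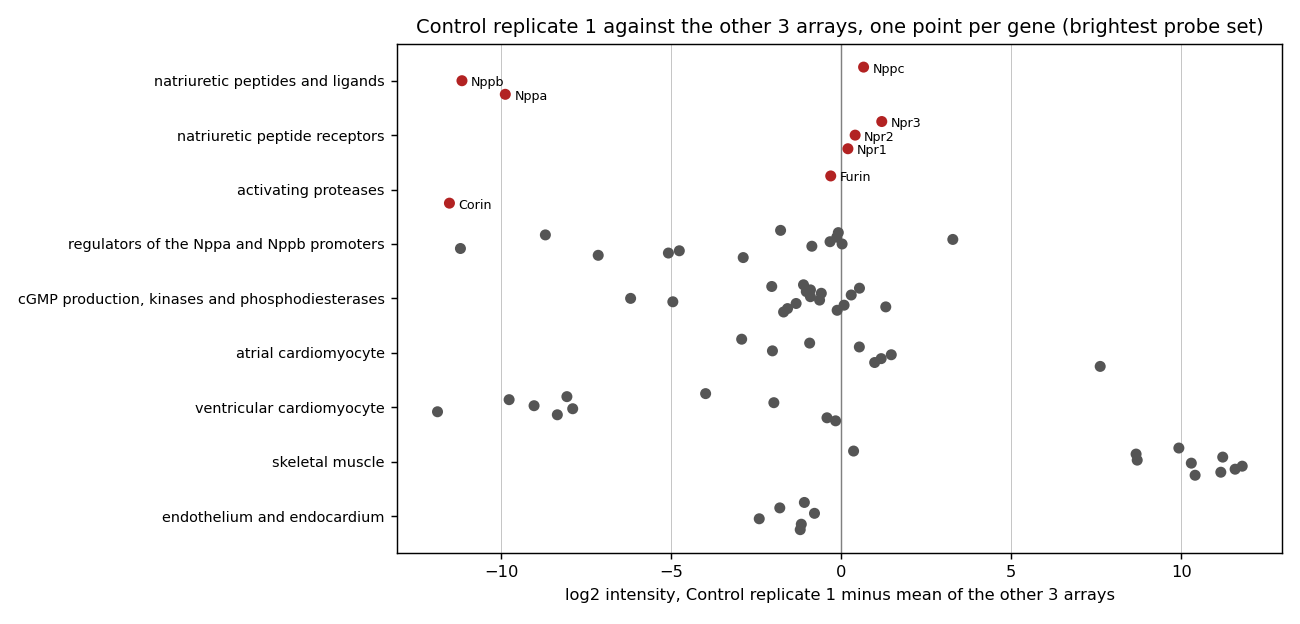
Log2 intensity of Control replicate 1 minus the mean of the other 3 arrays, one point per gene on its brightest probe set, with members of the natriuretic peptide system in red. Nppa, Nppb and Corin lie far to the left with most ventricular cardiomyocyte markers, while Nppc, the 3 receptor genes and Furin lie closer to 0. Most skeletal muscle markers lie far to the right.

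Among 7 measured genes of the cardiac stress response beside the peptides, 2 passed a fold of 2 with an unadjusted p under 0.05, both lower on the KO-labelled arrays (1.65% of all genes passed lower and 1.74% higher). They were Acta1, the skeletal alpha-actin gene, and Myh7, the beta myosin heavy chain gene. Acta1 read 16987 and 16893 on the KO-labelled arrays against 35886 and 33406 on the Control-labelled ones. Its log2 difference was -1.03 (standard error 0.21, adjusted p = 0.892 from limma), and -0.98 without Control replicate 1, which leaves 1 Control array. Myh7 read 5095 and 15848 on the KO-labelled arrays against 37865 and 32278 on the Control-labelled ones, so the KO-labelled pair differed by more than the Control-labelled pair. Myh6, the alpha myosin heavy chain gene of the adult ventricle, followed the peptides, at 56344 and 55092 against 171 on Control replicate 1 and 56095 on Control replicate 2. Acta1 and Myh7 are also expressed in skeletal muscle, and Control replicate 1 was high for both. Against Control replicate 2 alone, Nppa, Nppb, Acta1 and Myh7 all read lower in both KO-labelled arrays. Of the 7 stress genes, 6 had a lower mean log2 intensity on the KO-labelled arrays in that comparison and 1 a higher one. Of all genes, 8589 of 18193 were lower. The log2 differences of the 6 ranged from -0.01 for Myh6, nearly level, to -1.84 for Myh7. That comparison rests on 1 Control array.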

How the data were processed

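The authors hybridised labelled heart RNA to Affymetrix mouse arrays and summarised probes by MAS5 (per the labels), using GeneSpring. The deposited intensity values are linear, and on each array their mean after trimming 2% at either end was 500.0. Of the probe sets, 64 controls were left out, and 34945 carried a single symbol in the platform annotation. Here, log2 intensities of the 45037 remaining probe sets were fitted in R 4.3.3 with limma 3.58.1 (lmFit, then eBayes with an intensity trend), Rhau KO minus Control, adjusted by Benjamini-Hochberg over all of them at 0.05. Other gene lists used the brightest probe set of each gene. The members, lists and fold thresholds on single arrays were chosen with earlier results of these data known. All member probe sets are named, as are up to 3 genes with the smallest p of each other pathway list and the 3 genes nearest in pattern to Nppa and to Nppb. Cell type markers were named after their values were seen. Alternatives changed the prior, scaling, pseudocount (32), filter, probe set rule, block and test, and left out each array in turn. In those fits a group of 1 array takes its spread from the other group. The number of arrays limits the precision. Detection calls and scan dates were not analysed here. The code was tested on simulated arrays whose noise followed the spread of the Rhau KO arrays, a choice made after noise that followed the spread of all arrays had led to none of the added differences being called. Positions of the probes were not analysed here. Descriptive values and figures used pandas 2.3.3, numpy 2.4.6 and matplotlib 3.10.9 under Python 3.11.15.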

Additional observations from a re-analysis of the deposited data

How the results depend on the processing

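Over all probe sets, 1514 passed a fold of 2 with an unadjusted p under 0.05, and 744 did with a pseudocount of 32, 434 among the brighter probe sets, 599 with the brightest probe set of each gene and 639 with the mean of probe sets per gene. Leaving out each array gave 898 to 7016 such probe sets, and 0 to 6286 at an adjusted p under 0.05 (132 without Control replicate 1 and 6286 without Control replicate 2). Of the member probe sets, leaving out an array gave 0 to 3 at either threshold, the 3 being Nppa, Nppb and Corin without Control replicate 2. With the replicate number as a block, 1 member passed the fold and unadjusted p (Corin, adjusted p = 0.977 from limma) and 1606 of all probe sets. By the labels, same-numbered arrays share only the number. The difference of replicate 1 minus replicate 2 correlated at 0.003 between the 2 labels across probe sets. Control replicate 1 held skeletal muscle transcripts, so that correlation cannot tell whether same-numbered arrays were paired. Leaving out each array moved the log2 difference over -0.78 to 9.62 for Nppa, -0.40 to 11.03 for Nppb and -0.46 to 0.15 for Furin. For Npr3 it moved over -1.58 to 1.08 on 1435184_at, -1.67 to 0.85 on 1448024_at and -0.81 to 0.87 on 1450286_at, where quantile normalization gave -0.07 and median centring -0.09. The cause was not tested. No other member value changed sign, and the other alternatives brought 0 member probe sets past the adjusted threshold. Nppc, Npr1 and the 2 dimmer probe sets of Npr3 read near or under the array median on several arrays, so differences there are poorly resolved.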

Other observations

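Markers of smooth muscle, a cell type that carries natriuretic peptide receptors, were uneven among the arrays. Acta2, the smooth muscle actin gene, read 11023 and 6699 on the KO-labelled arrays against 4452 and 2590 on the Control-labelled ones, which is 1.34 on the log2 scale (standard error 0.39, limma adjusted p = 0.892). Myh11, the smooth muscle myosin heavy chain gene, read 947 and 324 against 372 and 222. All 4 smooth muscle markers, like 10356 of 18193 genes, had a higher mean log2 intensity on the KO-labelled arrays, and 1 of them (Acta2) passed a fold of 2 with an unadjusted p under 0.05, as did 1.74% of all genes in that direction. Rhau KO replicate 1, the array highest for all 4, was lowest for Npr3 and highest for Npr1. Their part in those values was not tested.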
